A study of Rattus norvegicus with 9 samples.

Results

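The interleukin 1 and interleukin 18 system was followed through 10 genes of 32824 named genes in the files: the cytokines Il1a, Il1b and Il18, the antagonist Il1rn, the receptors Il1r1, Il1r2, Il18r1 and Il18rap, and the processing genes Casp1 and Nlrp3. The genes were chosen by name. A gene's level was the sum, in TPM (a length-corrected share of each library's transcripts), over the transcripts that carry its name and the assembled transcripts of a locus that holds that name alone. Each of the 10 genes lay at 1 locus with no other gene name, and together they had 31 transcripts, of which 15 were assembled by the authors rather than taken from the reference.

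Interleukin 1 alpha and beta are alarm cytokines that signal through IL1R1 and its partner IL1RAP. IL1RN is a secreted antagonist that occupies IL1R1 without signalling, and IL1R2 is a decoy receptor that binds the cytokine without passing on a signal. The precursors of interleukin 1 beta and interleukin 18 are cut to their active forms by caspase-1, which is switched on in inflammasomes such as the one built on NLRP3. Interleukin 18 acts through IL18R1 and IL18RAP, and together with interleukin 12 it raises interferon gamma production by Th1 cells, while interleukin 1 supports Th17 cells. Monocytes and macrophages are the main blood source of interleukin 1 beta.

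Total RNA of blood CD4+ T cells from SD rats, aged 8 to 10 weeks, gave 9 libraries. The normal group, the model group of CIA rats and the combination group of CIA rats that received a combination of compounds for 4 weeks held 3 libraries each. CIA was taken to mean collagen-induced arthritis, as the study's title speaks of rheumatoid arthritis. The labels name neither the compounds nor the way in which the CD4+ cells were isolated. Nothing in the labels ties a library to its own animal, so every p-value here refers to the spread between libraries, which may be technical. Sequenced depth was 7.52 to 10.1 gigabases per library, of which 86.7% to 89.0% lay in the listed transcripts. The file headers give the combination libraries sample names that differ from their labels, and each was grouped by its label. The 3 comparisons share libraries: model against normal and combination against model share the model group, and combination against normal shares a group with each of them.

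The T cell label was checked first. Summed TPM of 13 T cell identity genes was 3807 to 4598 in normal, 2839 to 3823 in model and 3366 to 3741 in combination libraries. Cd3g, 1 of the 13, was at 245, 879 and 266 TPM in normal replicates 1, 2 and 3, and replicate 2 also had the highest sum. The defining marker Cd4 was 222 TPM on average in normal, 121 TPM in model and 121 TPM in combination libraries, with an adjusted p (limma) of 0.0779 for model against normal and 0.0991 for combination against normal. Of the 13, only Lat passed a threshold of 0.05 in any comparison. It fell from 542 to 304 TPM between normal and combination (-0.84; limma, adjusted p = 0.0385). Genes of other blood cells were also present. Summed TPM of the 16 monocyte and macrophage markers found of 18 listed was 86.1, 44.3 and 262 in normal replicates 1, 2 and 3. It was 249, 153 and 114 in model replicates 1, 2 and 3, and 889, 808 and 437 in combination replicates 1, 2 and 3. Every combination library thus lay above all others in the monocyte sum, and normal replicate 3 lay above normal replicates 1 and 2. Lyz2 made up much of the sum in combination libraries (mean 370.0 of 711 TPM). Of the 14 markers tested, 13 had a positive change between model and combination, and Ifi30 did not (9.4 and 6.01 TPM). Single markers did not all keep the order of the sum. Cd14 was at 2.96 TPM in combination replicate 3 and at 8.66 TPM in model replicate 1. None of the 16 markers was at 0 throughout, and Ms4a7 and Tlr4 stayed below a mean of 1 TPM. The 11 platelet markers also summed higher in combination libraries (105 to 158 TPM) than in normal (18.7 to 41.4 TPM) and model libraries (28.8 to 49.4 TPM). The smallest p that an exact two-sided permutation test of 3 against 3 libraries can give is 0.1, and the combination group reached it against both other groups for both sums. Erythroid markers summed highest in the model libraries (2408 to 16214 TPM, against 60.7 to 1123 TPM in normal and 262 to 866 TPM in combination libraries). The haemoglobin genes Hba-a2 and Hbb carried most of that sum (means 4986 and 2286 TPM in model libraries). Of the 5 erythroid markers tested, 4 had a positive change between normal and model. Klf1 did not, at 1.41, 1.26 and 1.23 TPM in normal, model and combination libraries. Neutrophil markers summed to 15.2 to 35.7 TPM in normal, 2.07 to 15.1 TPM in model and 6.64 to 9.82 TPM in combination libraries, with an exact two-sided permutation p of 0.1 for each of the latter against normal, and 12 of the 15 were below a mean of 1 TPM. S100a8 fell between normal and model (-2.23; limma, adjusted p = 0.0252) and between normal and combination (-1.94; adjusted p = 0.0374), and S100a9 fell between normal and model (-2.30; adjusted p = 0.0465). S100a8 and S100a9 carried most of the neutrophil sum in normal libraries (means 7.98 and 15.0 TPM). The only other neutrophil marker tested, Fcnb, went the other way, at 0.464, 2.63 and 0.851 TPM in normal, model and combination libraries. Fcnb reached the mean of 1 TPM needed for testing only through the model group, where replicate 1 was at 5.94 TPM. Its change between normal and model did not pass (1.16; limma, adjusted p = 0.175). In RNA of mixed cells, fewer cells of a type and less RNA per cell cannot be told apart.

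The sequence before the start of transcription is shown for Il1b, Il18, Il1rn, Il18r1 and Casp1, as context for the levels that follow, since none of the files bears on binding there. RefSeq's promoter table (build GRCr8, a newer build than the rn6 of the expression files) held 8 of the 10 members and none for Il1r2 and Il18rap. In the 250 bases before the start, both strands were searched for a kappa B core (GGG and CC with 5 bases between them), TGANTCA (AP-1), TTCNNNGAA (STAT) and GAGGAA (PU.1, a myeloid factor). Full windows are shown for Il1b and Il18, the 2 that lie outside the gene's own RefSeq span. The window of Il1b is chr3:137036582-137036831 on the minus strand of GRCr8, and that of Il18 is chr8:59801822-59802071 on the plus strand. Capitals mark matches to the kappa B core or GAGGAA, and the window of Il1b had no match to any of the 4 motifs.
Il1b: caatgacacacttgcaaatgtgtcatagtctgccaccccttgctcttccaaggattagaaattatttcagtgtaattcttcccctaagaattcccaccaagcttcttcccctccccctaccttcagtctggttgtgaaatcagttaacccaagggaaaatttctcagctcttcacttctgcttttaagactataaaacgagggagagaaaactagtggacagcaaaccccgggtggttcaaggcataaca
Il18: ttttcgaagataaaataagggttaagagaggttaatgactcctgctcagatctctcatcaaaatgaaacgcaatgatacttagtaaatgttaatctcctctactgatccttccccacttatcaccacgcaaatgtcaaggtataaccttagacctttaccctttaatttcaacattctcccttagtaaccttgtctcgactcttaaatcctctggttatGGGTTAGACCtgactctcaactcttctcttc
The windows of the other 6 members overlap the gene's own RefSeq span through another start site, and stretches of 30 bases around the matches are shown for Il1rn (chr3:27520183-27520212), Il18r1 (chr9:50223315-50223344) and Casp1 (chr8:10872664-10872693), all on the plus strand.
Il1rn: ggaaatatgaGGGTTTTTCCgcttttcaca
Il18r1: cggggaccagcgGAGGAAacaggcacaggc
Casp1: GAGGAAagatcattatcaGGGTTGACCCCt
A kappa B core was found for 4 of the 8 members (Il1rn, Il1r1, Il18 and Casp1) and in 42.3% of all 33469 windows of the same length. GAGGAA was found for 4 members (Il1a, Il18r1, Casp1 and Nlrp3) and in 23.3% of all windows, and TTCNNNGAA for Il18r1 and Nlrp3 and in 7.67%. TGANTCA was found for Il1a alone among the members and in 6.34% of all windows. In Casp1 the kappa B core matches on the 2 strands overlap each other. A match describes letters, not a bound site, and no match says only that these letters are not in this window.

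Of the 10 members, 6 reached the mean of 1 TPM over the 9 libraries that a gene needed to be tested (Il1b, Il1rn, Il1r1, Il18r1, Il18rap and Casp1). On either side of that limit stood Il1r1, with a mean of 1.0 TPM, and Il1r2, with 0.966 TPM. The test was limma's moderated test on log2(TPM + 1), in which fold changes of low genes are understated, with p-values adjusted over all 14175 genes tested and a threshold of 0.05. None of the 6 passed between model and normal, where 4.99% of all genes tested passed, and none between combination and model, where 4.49% did. Between combination and normal, Il18r1 rose and was the only one of the 6 past the threshold, against 4.6% of all genes tested. At an unadjusted p under 0.05, limma gave 2 of the 6 for model against normal, 4 for combination against model and 4 for combination against normal, beside 27.1%, 26.3% and 26.1% of all genes tested. The groups did not overlap for 2 of the 6 between model and normal (Il18r1 and Casp1; 33.2% of all genes tested), for 3 between combination and model (Il1b, Il18r1 and Casp1; 26.9%) and for 2 between combination and normal (Il18r1 and Il18rap; 35.8%). The median log2 fold change of the 6 was 0.06, 0.58 and 0.92 in these 3 comparisons, beside -0.01, 0.03 and 0.04 over all genes tested. Il1r1 reached the limit only through the combination group (group means 0.864, 0.756 and 1.39 TPM in normal, model and combination libraries). The members under the limit had, in the fit without it, combination against model values of -0.07 for Il1r2, -0.19 for Nlrp3, -0.12 for Il1a and 0.56 for Il18.

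**Figure D1:**
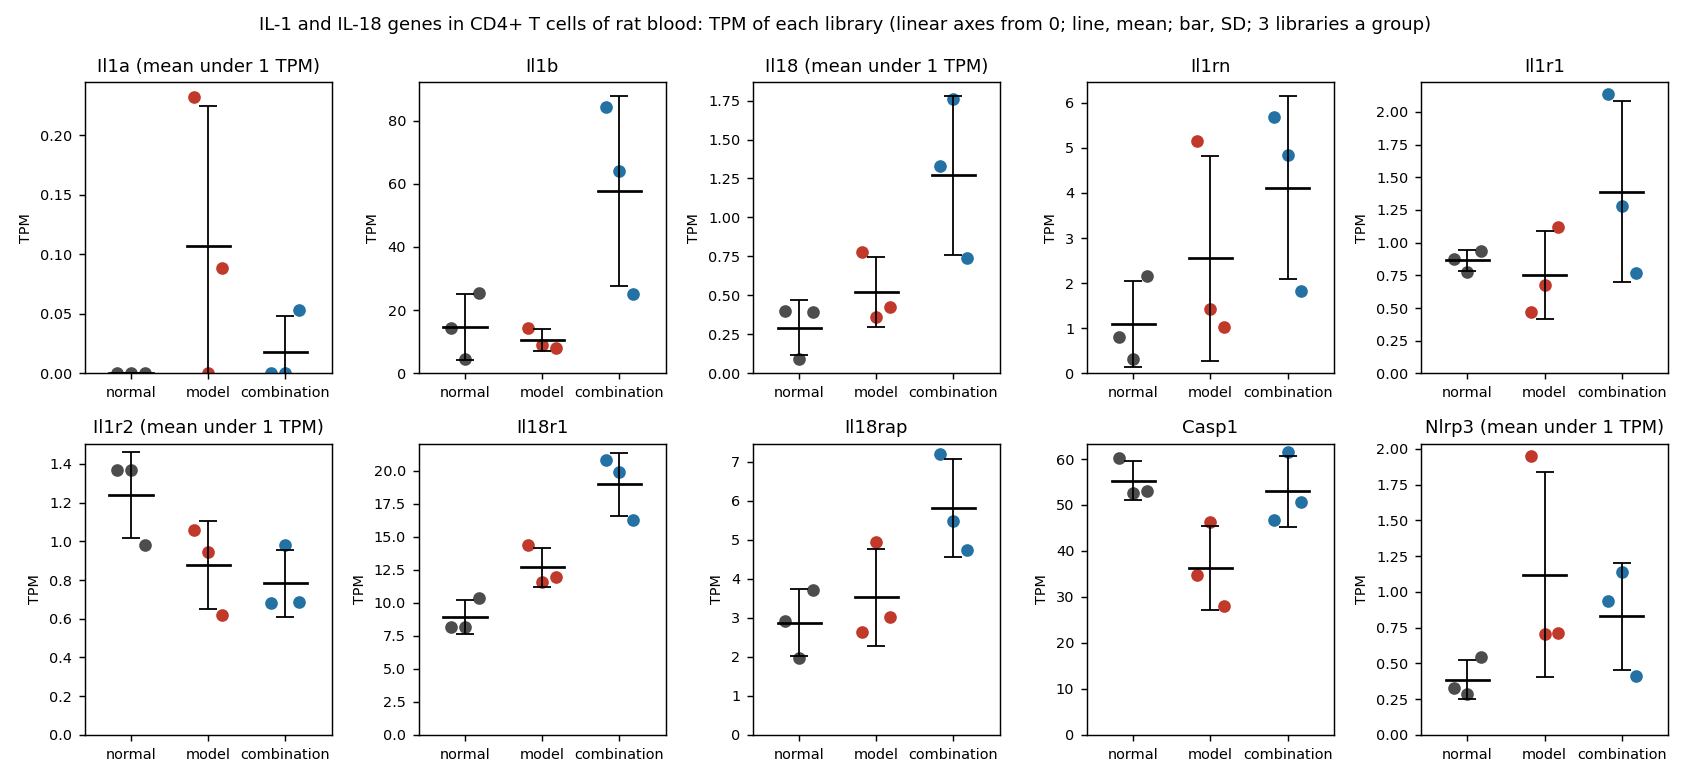
TPM of the 10 members in each library (points, 3 per group, left to right replicates 1 to 3) with the group mean (line) and SD (bar), on linear axes that start at 0 and differ between panels. Il1b reached 84.2 TPM in combination replicate 1 and stayed at or below 25.4 TPM in normal and model libraries, while Il18r1 lay in 3 separate bands and Casp1 was lowest in the model libraries.

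Among the cytokines, Il1b, at chr3:121876263-121882726 of rn6 on the minus strand, was the most abundant per length. It was at 14.5, 4.58 and 25.4 TPM in normal replicates 1, 2 and 3, at 14.4, 9.13 and 7.98 TPM in the model replicates, and at 84.2, 64.0 and 25.0 TPM in the combination replicates. All 3 combination libraries lay above all 3 model libraries, but the lowest of them lay just below the highest normal library. Group means were 14.8 ± 10.4, 10.5 ± 3.42 and 57.8 ± 30.1 TPM (SD, n = 3), so that the combination mean was 5.5 times the model mean and 3.9 times the normal mean. The log2 fold change of combination against model was 2.23 ± 0.578 (SE; 95% interval 0.93 to 3.53), with an adjusted p (limma) of 0.0573, and that of combination against normal was 1.99 (0.70 to 3.29), with 0.0762. Both therefore missed the threshold. The change between model and normal was -0.24 (-1.53 to 1.06; limma, adjusted p = 0.825).

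The Il1b result lay close to the threshold and moved across it. For combination against model the adjusted p (limma) ranged from 0.0401 to 0.162 over 21 alternatives and was past the threshold in 3 of them: FPKM values, median-ratio scaling and array weights. For combination against normal it ranged from 0.0142 to 0.208 and was past the threshold in 2, array weights and the fit without combination replicate 3, where the log2 fold change was 2.50 with an adjusted p of 0.0486. These alternatives also raised the number of all genes past the threshold. It went from 636 to 1333, 1630 and 1792 in the 3 for combination against model. In the 2 for combination against normal it went from 652 to 3952 and 719.

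Il1b and the monocyte markers were in part in the same order over the libraries. The level of Il1b and the monocyte sum were highest in combination replicate 1, second in combination replicate 2 and lowest in normal replicate 2. Within the normal group both were highest in replicate 3, and within the combination group both were lowest in replicate 3. The order did not hold throughout. Normal replicate 1, with a monocyte sum of 86.1 TPM, lay above all 3 model libraries in Il1b (14.5 against 7.98 to 14.4 TPM), whose sums were 114 to 249 TPM. Combination replicate 3, with a sum of 437 TPM, lay just below normal replicate 3, with 262 TPM (25.0 against 25.4 TPM of Il1b). The model mean of Il1b was the lower one (10.5 against 14.8 TPM in normal libraries), while the mean monocyte sum was the higher one (172 against 131 TPM). Of the 14 monocyte markers tested, 4 rose between model and combination and 7 between normal and combination, none fell, and none passed between normal and model. Their median log2 fold change was 1.61, 1.83 and 0.22 in these comparisons. Of the 14, Fcgr1a, Adgre1, Clec4a1 and Clec4a3 reached the limit for testing only through the combination group. Clec4a3 is among the 4 rises, and Fcgr1a and Adgre1 are among the 7. These counts and medians therefore rest in part on the filter. The largest of the monocyte changes in combination against model was that of Fcer1g, a signalling subunit of Fc receptors, from 0.597 to 38.9 TPM (log2 fold change 4.56, limma, adjusted p = 0.0101). Lyz2, the macrophage lysozyme, was at 53.1, 84.9 and 370.0 TPM in normal, model and combination libraries. Of the 7 platelet markers tested, 6 rose between model and combination and 5 between normal and combination. Gp1ba, among the 6, also reached the limit only through the combination group. The part of these cells in the Il1b values was not tested.

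**Figure D2:**
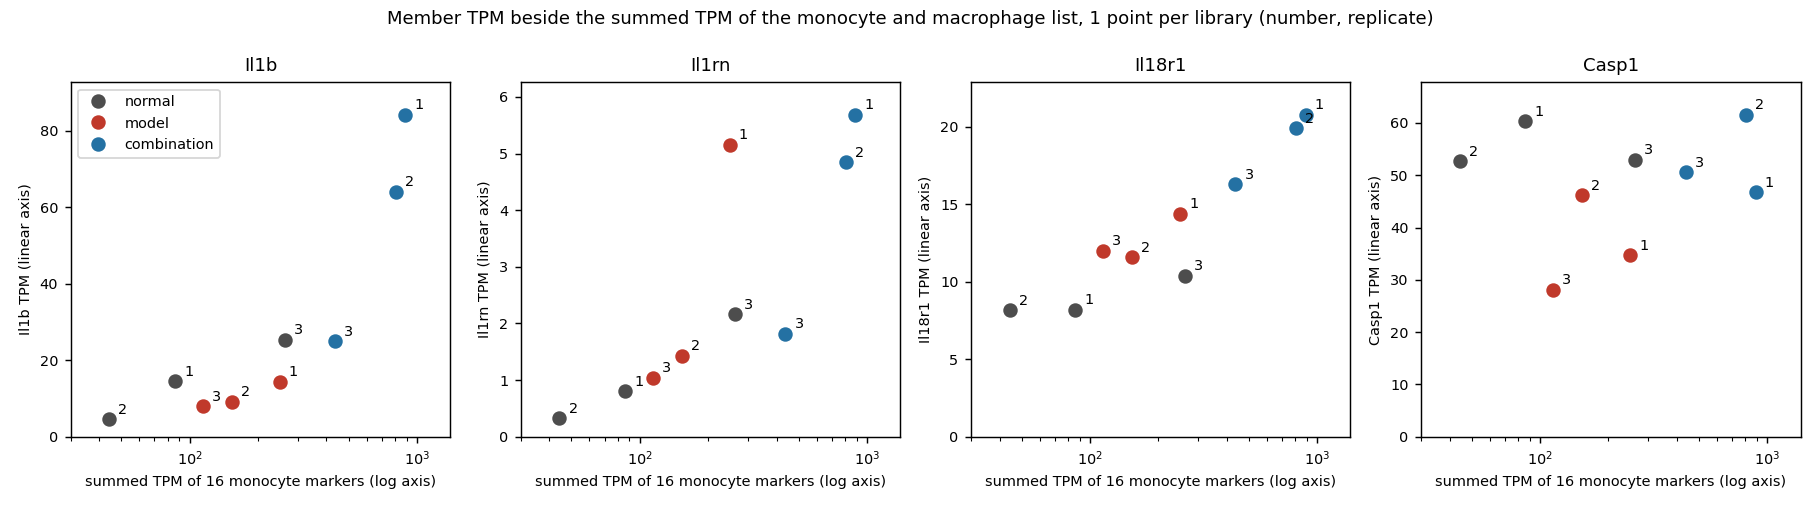
TPM of Il1b, Il1rn, Il18r1 and Casp1 (linear vertical axes from 0) against the summed TPM of 16 monocyte and macrophage markers (logarithmic horizontal axis), 1 point per library, coloured by group and numbered by replicate. The combination libraries, at 437 to 889 TPM of monocyte markers, hold the 2 highest Il1b values and the 3 highest Il18r1 values, and Casp1 shows no such order.

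The 2 transcripts of Il1b were the reference transcript and an assembled one that starts at a nearby position within the same locus. The assembled transcript held 0.982% to 9.24% of Il1b TPM in normal libraries and 6.49% to 15.0% in model libraries. In the combination libraries it held 45.9%, 9.0% and 32.3%. Its share was thus high in 2 of the 3 combination libraries and within the range of the model group in the other one. The reference transcript alone had a log2 fold change of 1.86 between combination and model, with an adjusted p (limma) of 0.124 in the fit on reference transcripts, so the direction did not rest on the assembled transcript.

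Il18 and Il1a were scarce. Il18, at chr8:54993859-55016299 of rn6, was at 0.399, 0.0906 and 0.392 TPM in the normal replicates, at 0.781, 0.36 and 0.426 TPM in the model replicates and at 1.33, 1.76 and 0.738 TPM in the combination replicates. The combination libraries lay above all normal libraries and overlapped the model libraries. With a mean of 0.697 TPM, Il18 was tested only in the fit without a filter on low values, in which combination against normal gave 0.80 (0.34 to 1.26; limma, adjusted p = 0.0949) and combination against model 0.56 (adjusted p = 0.194). Il1a was listed at 0 in all normal libraries, reached 0.232 TPM in model replicate 1, the highest of all, and was listed at 0 in model replicate 2 and in combination replicates 1 and 2. At these values nothing could be read from Il1a.

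The antagonist Il1rn, at chr3:1452644-1468614 of rn6, had 1 transcript. It was at 0.806, 0.325 and 2.16 TPM in the normal replicates, at 5.16, 1.43 and 1.04 TPM in the model replicates and at 5.69, 4.85 and 1.82 TPM in the combination replicates. The groups overlapped in all 3 comparisons, with model replicate 1 near the 2 highest combination libraries. Means were 1.1 ± 0.951, 2.55 ± 2.27 and 4.12 ± 2.03 TPM (SD, n = 3). No comparison passed the threshold, and combination against normal came nearest, at 1.29 ± 0.495 (SE; 0.18 to 2.40; limma, adjusted p = 0.141). With array weights, which give less weight to libraries that deviate more, that adjusted p was 0.0239. Array weights also took the number of all genes past the threshold in that comparison from 652 to 3952.

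Per length, Il1b exceeded its antagonist in every library, and the ratio of their TPM separated the model group from the others. It was 18, 14.1 and 11.8 in the normal replicates, 2.79, 6.37 and 7.64 in the model replicates and 14.8, 13.2 and 13.7 in the combination replicates. The 3 model ratios lay below all 6 others, and the combination ratios lay within the range of the normal ones. Il1rn, the denominator, was low, at 0.325 TPM in normal replicate 2 and 0.806 TPM in normal replicate 1. Neither gene passed between model and normal (limma, adjusted p = 0.825 for Il1b and 0.402 for Il1rn). The ratio of Il1b to Il1rn was 1 of 3 computed and is given without a test. The other two overlapped in part: Il18r1 over Il18rap was 2.36 to 5.48 in the model libraries and 2.81 to 4.12 in the normal and 2.88 to 3.62 in the combination libraries, and Il1r2 over Il1r1 was 1.05 to 1.77 in normal, 0.554 to 2.27 in model and 0.318 to 0.894 in combination libraries. Both genes of the latter ratio were near 1 TPM.

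The 4 receptor genes lie in a row on chromosome 9 of rn6: Il1r2 (chr9:46840992-46881264), Il1r1 (chr9:46962288-47036670), Il18r1 (chr9:47184754-47219397) and Il18rap (chr9:47225544-47258527), all on the plus strand. Their levels differed, with means over the 9 libraries of 0.966, 1.0, 13.5 and 4.07 TPM. The interleukin 18 receptor chains were thus the more abundant pair per length in these CD4+ T cell libraries.

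Il18r1, the chain that binds interleukin 18, lay in a separate range in each group. It was at 8.2, 8.17 and 10.4 TPM in the normal replicates, at 14.4, 11.6 and 12 TPM in the model replicates and at 20.8, 19.9 and 16.3 TPM in the combination replicates. No 2 groups overlapped. Means were 8.92 ± 1.27, 12.7 ± 1.5 and 19.0 ± 2.38 TPM (SD, n = 3). Il18r1 rose between normal and combination by 1.01 ± 0.172 on the log2 scale (SE; 0.62 to 1.40; limma, adjusted p = 0.0258), or 2.13 times in the means. The change between normal and model, 0.46 (0.08 to 0.85; limma, adjusted p = 0.127), and that between model and combination, 0.55 (0.16 to 0.93; adjusted p = 0.0898), did not pass.

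The Il18r1 call depended on single libraries. Its adjusted p (limma) for combination against normal ranged from 0.00202 to 0.879 over 21 alternatives and was past the threshold in 15. It was 0.0942 without normal replicate 1, 0.0982 without normal replicate 2, 0.0818 without combination replicate 1 and 0.103 without combination replicate 2, while the log2 fold change stayed at 0.95 to 0.97 in these fits. A replicate block in the fit gave 0.0662.

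The transcripts of Il18r1 told where the increase was counted. Its 8 transcripts were 1 from the reference and 7 that the authors assembled. The reference transcript was at 1.18, 2.14 and 1.17 TPM in the normal replicates, at 1.37, 1.34 and 1.28 TPM in the model replicates and at 1.67, 1.54 and 1.5 TPM in the combination replicates. It showed no step: its change between normal and combination was 0.07 (limma, adjusted p = 0.879 among reference transcripts), and that between normal and model was -0.08, opposite in sign to the sum. The assembled transcripts together were at 7.03, 6.03 and 9.22 TPM in the normal replicates, 13, 10.3 and 10.7 TPM in the model replicates and 19.1, 18.4 and 14.8 TPM in the combination replicates. They held most of the TPM of Il18r1 in every library, and their sum kept the 3 groups apart.

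Among the assembled transcripts, number 8, which starts within the locus at position 47190600 rather than at 47185443 like the reference transcript, separated the combination group. It was at 2.65, 0.399 and 3.16 TPM in the normal replicates, 2.38, 3.53 and 1.26 TPM in the model replicates and 7.04, 7.18 and 7.0 TPM in the combination replicates. Number 5 was at 3.12, 0 and 5.13 TPM in the normal replicates, at 8.61, 4.77 and 7.41 TPM in the model replicates and at 9.11, 8.45 and 4.72 TPM in the combination replicates. In normal replicate 2, number 5 was listed at 0 and number 4 took 52.5% of the gene, so the split among transcripts differed between libraries. In a fit on 36340 single transcripts, which was chosen after these values were seen, 15 member transcripts were tested and none passed in any comparison, where 0.201% (model against normal), 0.127% (combination against model) and 0.173% (combination against normal) of all transcripts passed. At an unadjusted p under 0.05, 4, 5 and 6 of the 15 were under it in these comparisons, beside 17.1%, 16.4% and 15.7% of all transcripts. Number 8 had a log2 fold change of 1.54 ± 0.43 (SE) between normal and combination, with an adjusted p (limma) of 0.170.

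**Figure D3:**
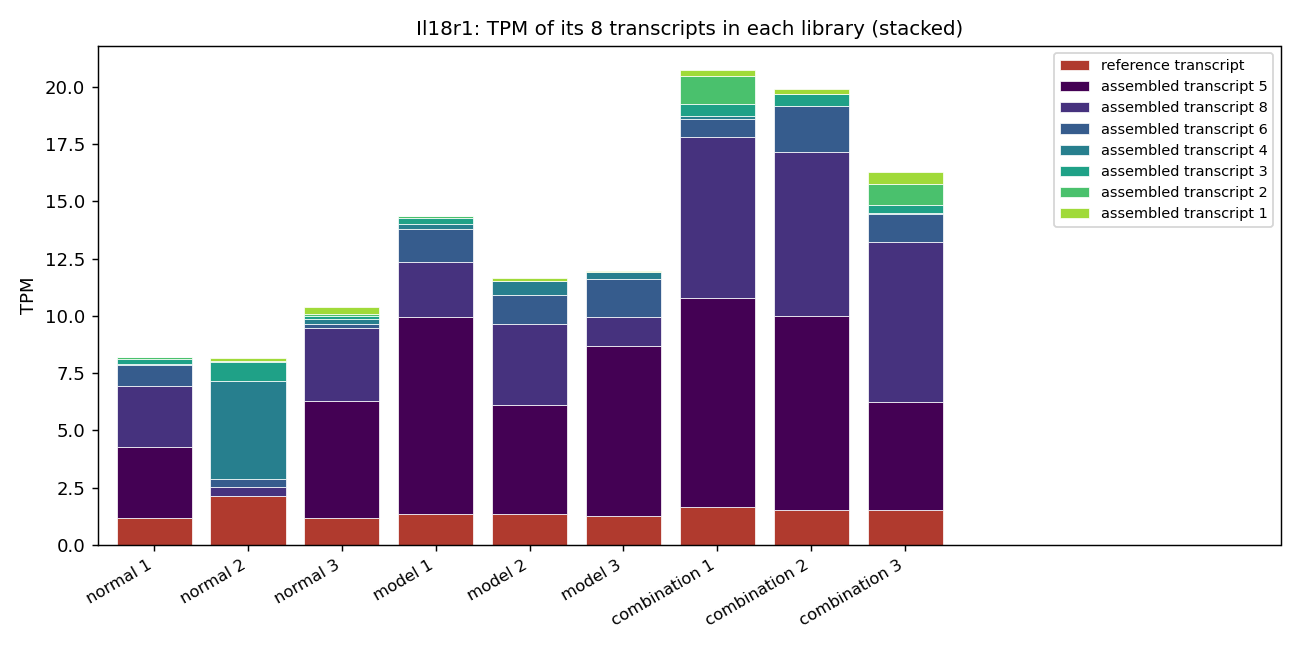
TPM of the 8 transcripts of Il18r1 stacked for each library (vertical axis from 0), with the reference transcript in red at the base and the 7 assembled transcripts above it. The reference transcript stays at 1.17 to 2.14 TPM, and the steps from normal to model to combination libraries lie in the assembled transcripts, mostly numbers 5 and 8.

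Il18r1 and the monocyte sum were also in part in the same order. The 3 combination libraries were highest in both, in the same order, and the 3 tested genes of at least 5 TPM whose log2(TPM + 1) was most correlated with it over the 9 libraries, out of 7597, were Cybb (Pearson r = 0.976), Clec7a (0.971) and Blvra (0.969). Cybb, the phagocyte oxidase subunit, is one of the monocyte markers and was at 2.56, 5.95 and 23.0 TPM on average in normal, model and combination libraries. It rose between normal and combination (log2 fold change 2.95; limma, adjusted p = 0.0266). The order did not hold throughout: all 3 model libraries lay above normal replicate 3 in Il18r1 (11.6 to 14.4 against 10.4 TPM), although normal replicate 3 had the higher monocyte sum (262 against 114 to 249 TPM). The part of monocytes in the Il18r1 values was not tested.

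Il18rap, the signalling partner of Il18r1, was at 2.92, 1.98 and 3.7 TPM in the normal replicates, at 2.63, 4.94 and 3.02 TPM in the model replicates and at 7.2, 5.49 and 4.74 TPM in the combination replicates. The combination libraries lay above all normal libraries, and the lowest of them lay below model replicate 2. The change between normal and combination was 0.83 ± 0.256 (SE; 0.25 to 1.40; limma, adjusted p = 0.0889), in the direction of Il18r1 but short of the threshold, which it passed in 2 of 20 alternatives (lowest adjusted p 0.0165). Those 2 alternatives, array weights and the fit without model replicate 2, also took all genes past the threshold from 652 to 3952 and 1594. Between model and combination the change of Il18rap was 0.61 (limma, adjusted p = 0.171). Its 2 transcripts have nearly the same ends, and the assembled one held 98.9% of the gene in normal replicate 1, 1.97% in replicate 2 and all of it in replicate 3, but at most 23.1% elsewhere, so only their sum is read.

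Il1r1, the signalling receptor of interleukin 1, was at 0.774 to 0.94 TPM in normal, 0.467 to 1.12 TPM in model and 0.768 to 2.14 TPM in combination libraries. The groups overlapped, and no comparison passed (limma, adjusted p = 0.82, 0.301 and 0.439 for model against normal, combination against model and combination against normal). The decoy Il1r2, which was under the limit for testing, was at 1.37, 1.37 and 0.982 TPM in the normal replicates, at 1.06, 0.946 and 0.622 TPM in the model replicates and at 0.679, 0.981 and 0.687 TPM in the combination replicates. Its highest combination library equalled the lowest normal library to within 0.01 TPM. Without the filter, combination against normal gave -0.33 (limma, adjusted p = 0.285). Il1r2 overlapped between normal and model libraries, with 0.982 TPM in normal replicate 3 and 1.06 TPM in model replicate 1. The neutrophil sum was higher in every normal library than in all others, narrowly at the closest (15.2 to 35.7 against 2.07 to 15.1 TPM). Most of that sum in normal libraries was S100a8 and S100a9. The part of neutrophils in the Il1r2 values was not tested.

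Casp1, the interleukin-converting caspase at chr8:2604962-2614631 of rn6, had the highest mean TPM of the members over the 9 libraries (48.2, next to 27.7 for Il1b), though in the combination group its mean was below that of Il1b (53.0 against 57.8 TPM). It was at 60.3, 52.7 and 53.0 TPM in the normal replicates, at 34.7, 46.2 and 28.1 TPM in the model replicates and at 46.7, 61.6 and 50.6 TPM in the combination replicates. All model libraries lay below all others, and model replicate 2 came within 1 TPM of combination replicate 1. Means were 55.3 ± 4.32, 36.3 ± 9.16 and 53.0 ± 7.68 TPM (SD, n = 3). The change between normal and model was -0.62 ± 0.197 (SE; -1.06 to -0.18; limma, adjusted p = 0.092), and that between model and combination was 0.55 (0.11 to 0.99; adjusted p = 0.119). Neither passed the threshold. Combination and normal differed by -0.07 (-0.51 to 0.37; adjusted p = 0.859). Without model replicate 2 both changes of the model group passed, at -0.80 against normal (limma, adjusted p = 0.0168) and 0.73 for combination against model (adjusted p = 0.0384). With array weights they passed as well, with adjusted p-values of 0.0217 and 0.029. Both fits also raised the number of all genes past the threshold. For model against normal it went from 707 to 2834 without model replicate 2 and to 2997 with array weights. For combination against model it went from 636 to 1325 and 1792.

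As a sum, markers of cytotoxic and natural killer cells were also lowest in the model libraries. All 12 were found, none of them at 0 throughout and 5 below a mean of 1 TPM, and they summed to 102 to 163 TPM in normal, 51.8 to 75.3 TPM in model and 82.5 to 111 TPM in combination libraries. The exact two-sided permutation p was 0.1, the smallest possible, for model against normal and for combination against model, and 0.3 for combination against normal. Of the 7 tested, 2 fell between normal and model, 2 rose between model and combination and 1 rose between normal and combination. Klrb1a was in both counts of rises and reached the limit for testing only through the combination group. Most of the sum came from Klrk1, Prf1 (34.4, 26.8 and 37.2 TPM in normal, model and combination libraries) and Klrd1 (31.2, 8.21 and 15.8 TPM). Gzmk (1.28, 1.65 and 2.18 TPM), Klrb1a (0.376, 0.569 and 2.5 TPM) and Klrg1 (0.051, 0.13 and 0.268 TPM) were instead lowest in normal libraries. Klrk1, the gene of the activating receptor NKG2D, was at 50.4, 16.4 and 31.5 TPM in normal, model and combination libraries, and it fell with the model (-1.55; limma, adjusted p = 0.013) and rose between model and combination (0.91; adjusted p = 0.0452). The part of these cells in the Casp1 values was not tested.

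The genes whose log2(TPM + 1) was most like that of Casp1 over the 9 libraries were Zfp386 (r = 0.974), Eid1 (0.967) and Eid2b (0.955). For Il1b they were Nadk2 (0.972), Lilrb4 (0.969) and Fgr (0.967), and for Il1rn Ccrl2 (0.958), Tgfbi (0.945) and Plek (0.941). For Il18rap they were Rere (0.969), Stambp (0.965) and Irf5 (0.959), and for Il1r1 Bcl2 (0.978), Ezh1 (0.962) and Rnf111 (0.961). None of the genes given here for these 5 members is on a marker list. These correlations describe 9 libraries that share group and cell content, and they are the highest among 7597 or 7598 genes searched for each member.

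The reference transcript of Casp1 and the first assembled one, which has the same ends, carried most of the gene. The reference transcript was at 23.3 ± 1.2, 13.4 ± 4.57 and 15.9 ± 4.38 TPM in normal, model and combination libraries (SD, n = 3), and the assembled one at 17.9 ± 4.6, 13.5 ± 1.81 and 22.7 ± 5.16 TPM. In the combination libraries the mean of the reference transcript lay nearer to its model mean, whereas the sum lay nearer to its normal mean. In reference transcripts alone, combination against model was 0.24 (limma, adjusted p = 0.643).

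Nlrp3, the sensor that assembles the inflammasome on which caspase-1 is activated, was under the limit for testing. It was at 0.327, 0.289 and 0.544 TPM in the normal replicates, at 1.95, 0.705 and 0.713 TPM in the model replicates and at 0.935, 1.14 and 0.409 TPM in the combination replicates. All model libraries lay above all normal libraries, with model replicate 1 well above the rest. Without the filter, model against normal gave 0.57 (limma, adjusted p = 0.325).

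**Figure D4:**
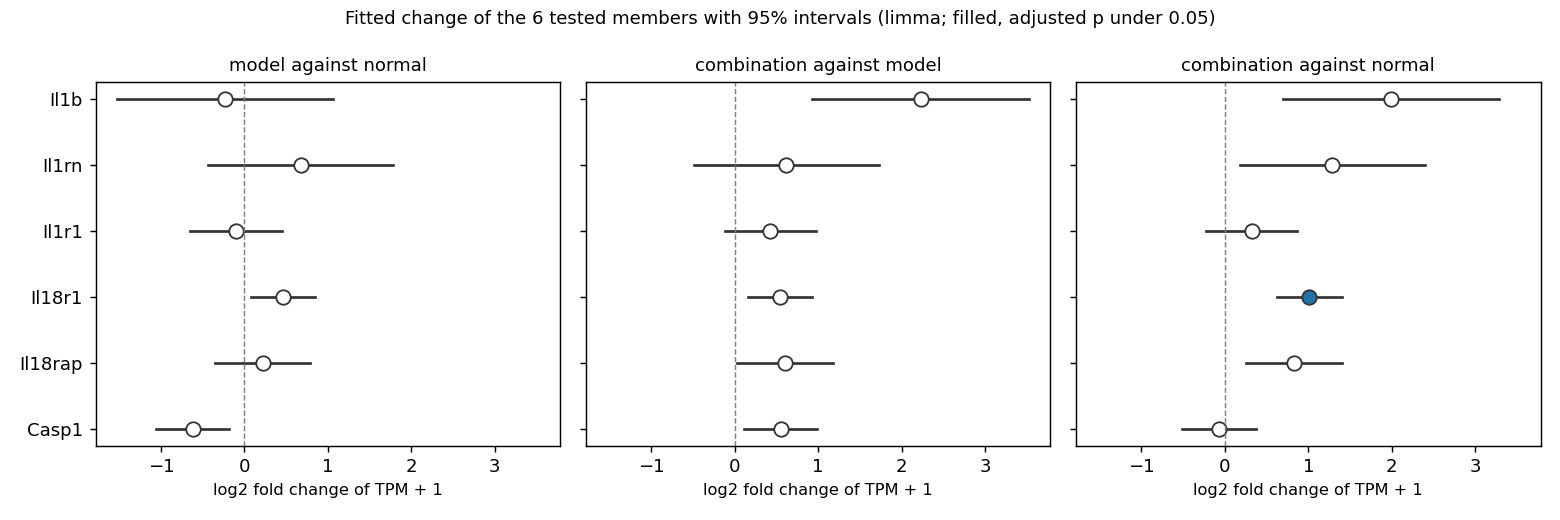
Log2 fold change of TPM + 1 (points) with its 95% interval (lines) for the 6 members tested, in 3 panels for the 3 comparisons. The filled point, Il18r1 in combination against normal at 1.01, is the only one past an adjusted p of 0.05, and in combination against model the intervals of Il1b, Il18r1, Il18rap and Casp1 lie above 0.

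The other genes of the pathway were read from 6 lists, on the same test. Of the 30 passing values of the genes named by rule from these lists, 27 missed the threshold when 1 library or another was left out, most often normal replicate 2 (24 of 30). Of the same 30, 18 missed it without a filter on low values, 16 with the replicate block, 15 in reference transcripts only and 12 with only the 2 groups compared. Of 13 further ligands and receptors of the interleukin 1 family, 2 were high enough to test and neither passed in any comparison: Il1rap, the shared receptor partner, at 2.83, 2.04 and 2.45 TPM in normal, model and combination libraries, and Sigirr, an inhibitory receptor, at 20.7, 14.6 and 12.6 TPM. Il18bp, the secreted inhibitor of interleukin 18, stayed at group means of 0.314, 0.395 and 0.72 TPM, and Il33 at or below 0.0226 TPM.

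Of 22 signalling genes tested below the receptors, 2 rose between normal and model, 1 rose between normal and combination, and none changed between model and combination. The list's median log2 fold change was 0.23, 0.10 and -0.04 in these comparisons. Irak2, a kinase of the receptor complex, was at 20.6, 28.6 and 22.2 TPM in the normal replicates, at 49.6, 53.8 and 43.8 TPM in the model replicates and at 74.5, 51.2 and 53.0 TPM in the combination replicates. It rose against normal in the model group (1.02; limma, adjusted p = 0.0263) and in the combination group (1.28; adjusted p = 0.0197). Traf6, the ubiquitin ligase downstream of the IRAK kinases, rose between normal and model from 9.31 to 29.7 TPM (1.49; adjusted p = 0.035). The adaptor Myd88 was at 43.6, 52.5 and 40.2 TPM and passed in no comparison.

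Of 13 inflammasome genes tested besides the members, 1 rose and 2 fell between normal and model, 1 rose between model and combination, and 2 rose and 2 fell between normal and combination. The medians were 0.05, 0.10 and 0.25. Txnip, a thioredoxin-binding protein that can bind NLRP3, fell between normal and model from 793 to 118 TPM (-2.76; limma, adjusted p = 0.00328) and rose between model and combination to 397 TPM (1.77; adjusted p = 0.0213). Between normal and combination Txnip fell by 0.98 on the log2 scale (adjusted p = 0.0465). Nek7, a kinase that NLRP3 needs for assembly, fell against normal in the model group (-0.79; limma, adjusted p = 0.0393) and in the combination group (-0.91; adjusted p = 0.0337), from 102 to 59.6 and 54.2 TPM. Ninj1, which mediates membrane rupture after pyroptosis, rose from 11.1 to 41.8 and 44.6 TPM (1.79 and 1.90; adjusted p = 0.0432 and 0.0409). Casp4, the caspase of the noncanonical inflammasome, was at 20, 50.1 and 74.7 TPM and rose between normal and combination (1.77; adjusted p = 0.0325). The adaptor Pycard (23.6, 17.6 and 15.6 TPM) and the pore former Gsdmd (43.4, 54.4 and 42.5 TPM) passed in no comparison.

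Genes that respond to interleukin 18 and interleukin 12 in Th1 cells gave 2 rises among 13 tested between normal and model and 1 fall between model and combination, and none passed between normal and combination. The medians were 0.66, -0.57 and 0.74. Gadd45g, a stress gene that supports interferon gamma production, was at 3.29, 1.79 and 3.57 TPM in the normal replicates, at 32.8, 17.7 and 15.1 TPM in the model replicates and at 3.86, 5.06 and 3.07 TPM in the combination replicates. It rose with the model (2.51; limma, adjusted p = 0.00922) and fell between model and combination (-2.14; adjusted p = 0.024). Gadd45b rose between normal and model (1.68; adjusted p = 0.0335). Ifng itself was at 1.5, 1.75 and 1.68 TPM in the normal, 1.74, 1.44 and 1.99 TPM in the model and 0.639, 0.919 and 0.878 TPM in the combination replicates. All combination libraries lay below all others, and the change between model and combination, -0.59, did not pass (limma, adjusted p = 0.0783). Il18r1 was thus at its highest in the libraries in which Ifng, 1 of the 13 genes tested, was at its lowest. Of the 13, 5 had a positive change between model and combination. Among these 5, Ccl3 (23.8, 32.4 and 60.4 TPM) and Hlx (1.15, 0.753 and 2.67 TPM) had their highest mean in the combination group, like Il18r1. A link between Il18r1 and these genes was not tested.

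Of 9 genes tested that mark the interleukin 1 response and Th17 cells, 3 rose between normal and model (Rora, Irf4 and Il6st), 1 fell between model and combination (Irf4) and none passed between normal and combination. The medians were 0.69, -0.23 and 0.31. Irf4, a transcription factor that Th17 cells need, was at 0.943, 4.34 and 1.01 TPM on average (1.37 and -1.31; limma, adjusted p = 0.0393 and 0.0461). Irf4 reached the limit for testing only through the model group, so its rise and its fall rest in part on the filter. Il17a and Csf2 were too low to test, at or below group means of 0.174 and 0.0297 TPM.

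Among 18 NF-kB feedback and target genes tested, 11 rose between normal and model, 6 between normal and combination and none between model and combination, and none fell. The medians were 1.46, 0.83 and -0.48. Nfkb2, the gene of the p100 precursor, rose from 34.5 to 207 TPM in the model and 221 TPM in the combination group (2.62 and 2.70; limma, adjusted p = 0.0132 for each). Il1b, also a target of NF-kB, gave 10.5 TPM in the model group beside 14.8 TPM in the normal group. Icam1, an adhesion molecule, rose from 10.8 to 37.7 and 54.3 TPM (1.75 and 2.21; adjusted p = 0.0313 and 0.0258).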

How the data were processed

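RNA of CD4+ T cells was measured in 9 libraries. Per the submitters' processing notes the authors used bcl2fastq and HISAT2 with rn6 (versions not given in the sources used here), while StringTie 1.3.3b, per the file headers, quantified a fixed set of transcripts. The deposited values are text attributes of 80092 transcripts: coverage, FPKM and TPM, other than counts, as the authors' StringTie run gave them. Strandedness of counting is not given in the sources used here. Depth was computed from the ratio of coverage to FPKM.

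TPM was summed per gene name within a locus, giving 36858 units, of which 30032 were above 0. limma 3.58.1 (R 4.3.3) was fitted to log2(TPM + 1) of units averaging at least 1 TPM, with a coefficient for each group and a trend on intensity. There were 6 residual degrees of freedom and 3.53 prior ones, and adjustment was by Benjamini-Hochberg. Other steps used Python 3.11.15, pandas 2.3.3, numpy 2.4.6 and matplotlib 3.10.9. Marker sums were compared by exact two-sided permutation over 20 arrangements.

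Members and the 14 other lists (215 names, 7 of them not analysed here) were chosen with earlier results of these data known. Every member was named. Of each pathway list, genes past the threshold were eligible, at most 4 per comparison by smallest p, or else the 2 of smallest p. Myd88, Pycard, Gsdmd, Il18bp, Il33, Il17a, Csf2 and the marker genes named were picked outside that rule, after their values were seen.

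On simulated data for model against normal (5 rounds, 14175 genes, 200 changed), recovery was 6% for 1.5-fold changes, 40.8% for 2-fold, 81.2% for 4-fold and 95.2% for 8-fold. False calls made up 5.58%. The simulated noise was independent between genes and libraries, without library-wide shifts or differences in cell content. These rates therefore describe the simulated data only.

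The fit was repeated with another pseudocount (0.1 or 5), with no filter or one at 5 TPM, on FPKM, after median-ratio scaling, on the compared groups alone, without the trend and with array weights. It was also repeated with a replicate block, on reference transcripts only, with exon overlap deciding the gene of an assembled transcript, and without each library in turn. Equal replicate numbers did not pair the libraries: residual correlations were -0.137 to 0.056, and only 1 of the 9 was closest to its own number.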

Additional observations from a re-analysis of the deposited data

How the results depend on the processing

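Members past the threshold numbered 0 between model and normal, but 2 with array weights and 0 to 1 when a library was left out (1 without model replicate 2). Between combination and model they numbered 0, but 1 with FPKM, 1 with median-ratio scaling, 2 with array weights and 0 to 1 with a library left out (1 without model replicate 2). Between combination and normal the number was 1, but 4 with array weights, 0 in reference transcripts only, 0 with the replicate block and 0 to 2 with a library left out: 0 without normal replicate 1 or 2 or combination replicate 1 or 2, and 2 without model replicate 2 or combination replicate 3. In each fit that changed a member count, the count over all genes moved in the same direction. In these 3 comparisons, array weights took it from 707 to 2997, from 636 to 1792 and from 652 to 3952. Without model replicate 2 it was 2834, 1325 and 1594. The replicate block, which the residuals did not call for, took the counts of genes past the threshold from 707 to 163, from 636 to 9 and from 652 to 82.

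Over all genes, the counts for model against normal, combination against model and combination against normal were 1191, 1333 and 1266 with FPKM, 1493, 1630 and 1500 with median-ratio scaling, 2997, 1792 and 3952 with array weights, and 187, 142 and 81 in reference transcripts only. They were 86, 196 and 206 without a filter, 113, 24 and 1391 with only the 2 groups compared, and 559, 400 and 389 with the filter at 5 TPM. With a library left out they ranged from 34 to 2834, 1 to 1325 and 21 to 1594. Of 30 pathway values past the threshold, 27 missed it without at least 1 library (24 without normal replicate 2, 19 each without normal replicates 1 and 3 and combination replicate 2, 16 without combination replicate 1, 13 and 12 without model replicates 1 and 3, and 3 without combination replicate 3), and those of Gadd45g, Relb and Txnip between normal and model did not.

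Some log2 fold changes changed sign. With array weights, Nek7 (0.02) and Sigirr (0.39) did so between combination and model, and Casp1 (0.051) and Irf4 (-0.013) between combination and normal. In reference transcripts only, Il18r1 (-0.077, against 0.46 in all transcripts) did so between model and normal, Birc3 (0.15, against -0.20) and Casp4 (-0.64, against 0.52) between combination and model, and Il6st (-0.003, against 0.64) between combination and normal. Batf changed sign between combination and model with a pseudocount of 5 (-0.002) and median-ratio scaling (-0.056). With a library left out, values between model and normal ranged from -0.85 to 0.27 for Il1b, -0.14 to 0.019 for Il1r1 and -0.031 to 0.12 for Ifng. Those between combination and model ranged from -0.36 to 0.69 for Batf, -0.37 to 0.031 for Birc3, -0.27 to 0.02 for Nek7, -0.17 to 0.32 for Nfkb2, -0.21 to 0.47 for Ninj1, -0.30 to 0.44 for Sigirr and -0.14 to 0.57 for Tnf. Those between combination and normal ranged from -0.18 to 0.016 for Casp1 and -0.076 to 0.17 for Irf4. The cause of these changes was not tested. Assigning transcripts by exon overlap left the members' values as they were. Read counts are not given, so no counting interval was derived for members near or under 1 TPM.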
